A study of Mus musculus with 8 samples.

Results

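The transcripts of 10 core circadian clock genes were followed in AML12 cells, a hepatocyte line derived from mouse liver, after 1 h of pulsed weak magnetic field. The genes were chosen by symbol as the central parts of the clock, with the cryptochromes first because cryptochrome proteins are discussed as sensors of magnetic fields. They were Cry1, Cry2, Per1, Per2, Per3, Clock, Arntl, Nr1d1, Nr1d2 and Dbp, which are 10 of the 55401 genes in each deposited table, and all 10 were among the 12122 genes abundant enough to test.

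The circadian clock is a feedback loop that runs in most cells. CLOCK and ARNTL (also called BMAL1) form a pair that binds E-box sequences and switches on the Per and Cry genes, and the PER and CRY proteins then return to the nucleus and hold that pair back. Another loop runs through the nuclear receptors REV-ERB alpha and REV-ERB beta, encoded by Nr1d1 and Nr1d2, which repress Arntl, while ROR receptors activate it. DBP carries the rhythm to output genes through D-box sequences, and in the liver the clock times much of metabolism. Per1 and Per2 are also immediate targets of signals that reset the clock, such as glucocorticoids and cyclic AMP.

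Both groups were AML12 dishes from the same batch of culture, 4 controls and 4 exposed to an extremely low-frequency weak magnetic field (Opti-ELF-WMF) for 1 h. The field had a peak of 10 µT, in pulses 4 ms wide whose frequency rose stepwise from 1 to 8 Hz. All dishes grew in medium that held serum, dexamethasone, insulin, transferrin and selenium, so the control cells were under a glucocorticoid as well. Control dishes stood in another incubator of the same model with the stimulator switched off, so the field and the incubator cannot be told apart. The sources do not say that the cells were synchronised, and with 1 time point the phase or amplitude of a rhythm cannot be read from these data. AML12 is a single immortalised line, and the dishes measure the spread between cultures of it.

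The authors deposited TPM, a transcript abundance in which read numbers are corrected for gene length and every dish has the same sum. TPM keeps no depth, so no counting interval or detection limit is given. The dishes had 19386 to 20114 genes above 0, and each dish had a mean r of 0.9917 to 0.9936 with the others of its group across tested genes, which are not independent replicates. The summed TPM of 8 hepatocyte markers was 1388 to 1464 in control dishes and 1393 to 1496 in exposed dishes, a sum carried by Trf, Ttr and Hnf4a, with Fgb under 1 TPM. Albumin (Alb) was lower in exposed dishes on average, with a log2 difference of -0.15 (unadjusted p = 0.0168, adjusted p = 0.21, limma). Of the 7 tested hepatocyte markers 1 had wholly lower exposed dishes after upper-quartile scaling, after median-of-ratios scaling and after rescaling without mitochondrial genes. Under these scalings 393 to 489 of all tested genes were wholly lower. The 4 epithelial markers summed to 4203 to 4393 TPM in control dishes and 4475 to 4684 TPM in exposed dishes with no overlap, led by Krt8 and Krt18 (log2 differences 0.071 and 0.091, adjusted p = 0.194 and 0.166, limma), and Epcam was under 1 TPM. Of the 3 tested, 2 were wholly higher as deposited, 0 after upper-quartile or median-of-ratios scaling, and 1 after rescaling without mitochondrial genes. Of all tested genes 971 were wholly higher as deposited and 408 to 464 under these scalings. The part of these marker differences in the clock values was not tested. The 5 macrophage markers summed to 1.6 to 2.34 TPM in control dishes and 1.2 to 1.81 TPM in exposed dishes, nearly all of it Cd68 (1.05 to 2.21 TPM), with Adgre1 and Clec4f listed at 0 in all dishes. The 5 stellate cell and fibroblast markers summed to 0.44 to 1.27 TPM in control dishes and 0.39 to 1.17 TPM in exposed dishes, mostly Col1a1, with Lrat listed at 0, and the 4 endothelial markers summed to 0.09 TPM or less. Keratin 19, which marks bile duct cells, was abundant, and the 4 markers of that cell type summed to 1583 to 1683 TPM in control dishes and 1606 to 1724 TPM in exposed dishes. Transcripts of the mitochondrial genome made up 8.69 to 9.42% of TPM in control dishes and 5.99 to 7.69% in exposed dishes. Because TPM sums to a fixed total, a smaller mitochondrial share raises the values of the other genes. The median difference of all tested genes was 0.026 (log2), against -0.0053 to -0.0013 under these 3 other scalings.

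The upstream sequences of Cry1, Per1 and Per3 are shown because they hold the E-box, D-box and CRE half-site matches found at the clock genes. RefSeq windows on GRCm38.p6, each with 250 bases before and 50 after a start site, were at hand for 9 of the 10 genes (13 windows, none for Per2). They were searched on both strands for the E-box CACGTG bound by CLOCK and ARNTL, the D-box TTATGTAA bound by DBP, the half-site AGGTCA bound by ROR and REV-ERB receptors, and the CRE half-site TGACGT bound by CREB. Of all 32851 windows, 7.15% held the E-box, 0.938% the D-box, 16.3% the ROR half-site and 7.51% the CRE half-site. The 250 bases before the start site are printed 5′ to 3′ on the strand of the gene, with motif letters in capitals.
Cry1, chr10:85185055-85185304, minus strand: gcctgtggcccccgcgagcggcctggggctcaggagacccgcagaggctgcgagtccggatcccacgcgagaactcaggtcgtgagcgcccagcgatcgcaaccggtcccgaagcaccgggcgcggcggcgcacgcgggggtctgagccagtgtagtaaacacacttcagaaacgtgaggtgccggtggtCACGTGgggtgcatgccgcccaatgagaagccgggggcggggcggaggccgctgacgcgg
Per1, upstream start site, chr11:69098699-69098948, plus strand: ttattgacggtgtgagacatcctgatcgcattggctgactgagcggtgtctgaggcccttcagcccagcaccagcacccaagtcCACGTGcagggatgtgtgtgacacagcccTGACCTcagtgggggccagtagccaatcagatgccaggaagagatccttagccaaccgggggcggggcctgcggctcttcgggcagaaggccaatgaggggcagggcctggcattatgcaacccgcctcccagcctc
Per1, downstream start site, chr11:69099902-69100151, plus strand: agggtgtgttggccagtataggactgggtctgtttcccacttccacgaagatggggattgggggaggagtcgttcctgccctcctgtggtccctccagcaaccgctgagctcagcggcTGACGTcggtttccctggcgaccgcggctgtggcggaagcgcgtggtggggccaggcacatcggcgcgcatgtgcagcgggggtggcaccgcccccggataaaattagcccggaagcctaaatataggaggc
Per3, chr4:151044666-151044915, minus strand: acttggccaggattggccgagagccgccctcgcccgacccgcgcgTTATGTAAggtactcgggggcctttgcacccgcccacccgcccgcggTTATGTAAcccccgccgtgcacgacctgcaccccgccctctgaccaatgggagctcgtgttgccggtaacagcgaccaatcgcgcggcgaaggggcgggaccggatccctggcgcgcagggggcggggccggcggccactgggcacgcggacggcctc

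Cry1 held an E-box that began 60 bases before the start site, and its last 10 printed bases lie in the first exon of Cry1 in GENCODE M21. The upstream Per1 window held an E-box at -166 and, in the reverse direction, the ROR half-site at -137, and it lies in an intron of a longer Per1 transcript apart from its last base. The downstream Per1 window, within an intron of Per1, held the CRE half-site at -132. Per3 held the D-box at -205 and again at -158, in a stretch that a long Camta1 transcript spans on the same strand as Per3. The ROR half-site also stood at -119 in one Clock window, at -77 in the Nr1d2 window, and 32 bases after a start site of Arntl. The windows of Cry2, Dbp and Nr1d1 held none of these 4 letter strings, which says only that they are not in these 300 bases. No 2 motifs shared a base.

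After 1 h of Opti-ELF-WMF the fitted differences of the 10 clock transcripts, exposed minus control, lay between -0.14 for Per2 and 0.16 for Dbp on the log2 scale. In RNA from whole dishes, fewer cells that express a gene and less RNA per cell cannot be told apart. None of the 10 genes had an adjusted p-value under 0.05 (limma on log2(TPM + 1), Benjamini-Hochberg over all tested genes), where the same was true of 0% of the 12122 genes. Per2 alone had an unadjusted p-value under 0.05, and it was lower. Of all tested genes 12% had an unadjusted p-value under 0.05 and were higher, and 3.65% had one and were lower, so 1 of 10 genes is near the background. No clock gene had exposed dishes that all lay above or all below the control dishes, where 8.01% of all tested genes were wholly higher and 1.86% wholly lower. In all, 7 of the 10 fitted differences were above 0 and 3 below, with a median of 0.042 on the log2 scale, where 7720 of the 12122 tested genes were above 0. Under the 3 other scalings the count was 6 above 0 and 4 below, and the median was 0.0098 to 0.014.

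**Figure D1:**
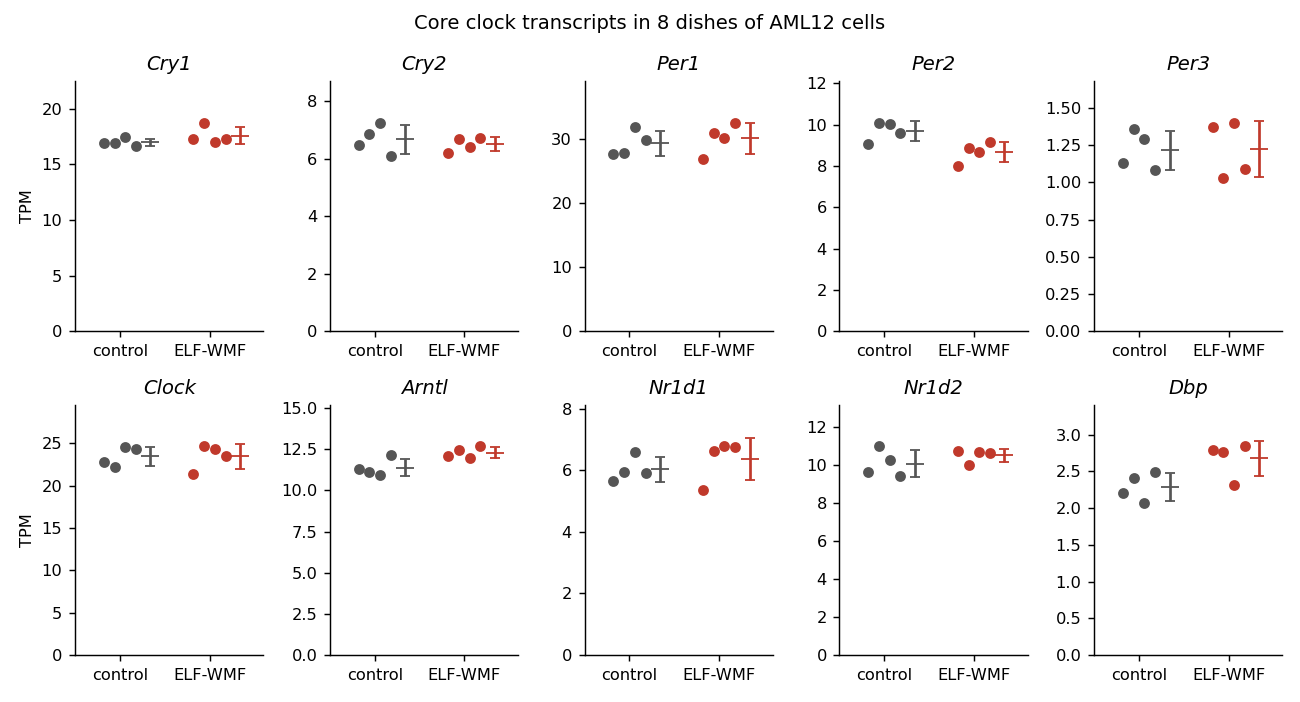
TPM of the 10 clock genes (vertical axes from 0, each gene on its own scale) in 4 control dishes (grey) and 4 ELF-WMF dishes (red). Points are dishes in the order of their labels and the bars give mean ± SD; the groups overlap in every panel, with the least overlap in Per2, where the lowest control dish (9.08 TPM) was just below the highest exposed dish (9.16 TPM).

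The cryptochromes are flavoproteins related to photolyases and are the strongest repressors of CLOCK and ARNTL in mammals. Cry1 (chromosome 10, 85131700 to 85185064, minus strand, GRCm38) had 16.9, 16.89, 17.43 and 16.6 TPM in control dishes 1 to 4. In exposed dishes 1 to 4 it had 17.26, 18.73, 17.02 and 17.31 TPM. All but one of the exposed dishes lay inside the control range, and dish 2 stood above all others. The means were 16.95 ± 0.346 and 17.58 ± 0.777 (SD, n = 4 culture dishes each). The log2 difference was 0.049 (standard error 0.042, 95% interval -0.046 to 0.14, adjusted p = 0.636, limma), and it was 0.020 without exposed dish 2.

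Cry2 (chromosome 2, 92403646 to 92434043, minus strand) was at 6.46, 6.87, 7.25 and 6.11 TPM in control dishes. It was at 6.21, 6.68, 6.41 and 6.73 TPM in exposed dishes, all of them inside the control range. The means were 6.67 ± 0.495 and 6.51 ± 0.243 (SD, n = 4 each), with a log2 difference of -0.030 (standard error 0.063, 95% interval -0.17 to 0.11, adjusted p = 0.868, limma). Without control dish 3 the sign turned, to 0.0060.

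Within a dish the level of Cry1 was 2.4 to 2.8 times that of Cry2, on the TPM scale, with a median of 2.64. The log2 ratio of Cry1 to Cry2, with 1 TPM added to each, was 1.26, 1.18, 1.16 and 1.31 in control dishes and 1.34, 1.36, 1.28 and 1.24 in exposed dishes. The groups overlapped, and the difference of 0.078 had p = 0.143 by a two-sided exact permutation test over 70 assignments of the dishes (0.286 after Benjamini-Hochberg adjustment over 4 ratios). The 2 transcripts shared no run of 75 bases, so reads of one were not open to assignment to the other at that length. Of the runs of 75 bases of Cry2, 2.4% also occur in the reverse direction in D930015M05Rik, chosen for mention after its values were seen. D930015M05Rik was at 0.1 to 0.48 TPM in control dishes and 0.12 to 0.35 TPM in exposed dishes. The sources do not say whether the counting used strand.

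The Period genes encode the partners of the cryptochromes in the repressor complex. Per2 (chromosome 1, 91415982 to 91459324, minus strand) had the smallest p-value of the 10 genes. It was at 9.08, 10.09, 10.03 and 9.59 TPM in control dishes, and at 8.02, 8.88, 8.65 and 9.16 TPM in exposed dishes. All exposed dishes but dish 4 lay below all control dishes. The means were 9.70 ± 0.468 and 8.68 ± 0.485 (SD, n = 4 each), a log2 difference of -0.14 (standard error 0.057, 95% interval -0.27 to -0.018, unadjusted p = 0.0295, adjusted p = 0.255, limma). Under the 3 other scalings the difference was -0.18 to -0.17, the dishes of the groups no longer overlapped, and the adjusted p-value was 0.266 to 0.308 (limma). The difference was -0.11 without exposed dish 1, which held the lowest Per2 value, and the unadjusted p-value was above 0.05 without that dish, without control dish 2 and without control dish 3.

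Per1 (chromosome 11, 69095217 to 69109960, plus strand) was the most abundant clock transcript. It was at 27.73, 27.85, 31.87 and 29.85 TPM in control dishes, and at 26.83, 30.91, 30.15 and 32.54 TPM in exposed dishes. The exposed dishes held both the lowest and the highest value of the 8. The means were 29.3 ± 1.96 and 30.1 ± 2.40 (SD, n = 4 each), with a log2 difference of 0.036 (standard error 0.064, 95% interval -0.11 to 0.18, adjusted p = 0.84, limma), which was -0.0017 without exposed dish 4.

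Per3, whose loss leaves the clock largely running in mice, was near the abundance limit. It was at 1.13, 1.36, 1.29 and 1.08 TPM in control dishes and at 1.37, 1.03, 1.4 and 1.09 TPM in exposed dishes (chromosome 4, 151003652 to 151044665, minus strand). Exposed dishes again held both extremes. The log2 difference was 0.0028 (standard error 0.10, 95% interval -0.22 to 0.23, adjusted p = 0.995, limma), the widest interval of the 10 genes, and it was below 0 under the 3 other scalings (-0.015 to -0.013).

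Per1 and Per2 are often induced together, so their ratio within a dish was compared as well. The log2 ratio was 1.51, 1.38, 1.58 and 1.54 in control dishes and 1.63, 1.69, 1.69 and 1.72 in exposed dishes. Every exposed dish lay above every control dish. The means were 1.50 ± 0.086 and 1.68 ± 0.041 (SD, n = 4 each), and the difference of 0.18 had p = 0.0286 by the exact permutation test, which is the smallest value that 4 dishes against 4 can give, and 0.114 after adjustment over the 4 ratios. A single ratio at that smallest value cannot have an adjusted p-value under 0.05 among 4 ratios, so the adjusted value decides nothing here. The difference was 0.140 to 0.205 with each dish left out in turn. A ratio within a dish hardly depends on how the dish was scaled, and median-of-ratios scaling gave 0.18. Since Per2 differed by -0.14 and Per1 by 0.036, the ratio mostly restates the Per2 difference and is not a separate result.

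**Figure D2:**
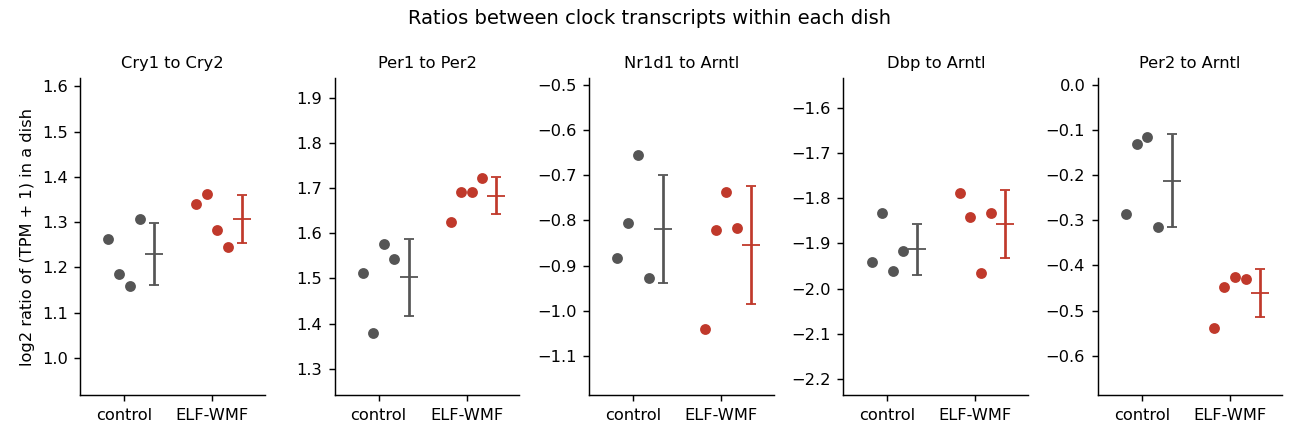
Log2 ratios of clock transcripts within a dish, with 1 TPM added to each gene (vertical axes, each ratio on its own scale of equal length), for 4 control (grey) and 4 ELF-WMF dishes (red) with mean ± SD. Control and exposed dishes do not overlap for Per1 to Per2 or for Per2 to Arntl, and they overlap for the other 3 ratios; Per2 to Arntl was chosen after its values were seen and has no test.

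CLOCK and ARNTL are basic helix-loop-helix factors that work as a pair and form the positive arm. Clock (chromosome 5, 76209868 to 76304792, minus strand) was at 22.77, 22.18, 24.52 and 24.28 TPM in control dishes and at 21.36, 24.62, 24.35 and 23.45 TPM in exposed dishes. The group means, 23.44 ± 1.14 and 23.45 ± 1.48 (SD, n = 4 each), were nearly equal. The log2 difference was -0.0004 (standard error 0.054, 95% interval -0.12 to 0.12, adjusted p = 0.998, limma), and its sign turned with single dishes left out.

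Arntl (chromosome 7, 113207465 to 113314126, plus strand) was at 11.29, 11.15, 10.96 and 12.18 TPM in control dishes. It was at 12.1, 12.47, 11.97 and 12.68 TPM in exposed dishes, so that control dish 4 alone reached into their range. The means were 11.4 ± 0.541 and 12.3 ± 0.328 (SD, n = 4 each), with a log2 difference of 0.10 (standard error 0.047, 95% interval -0.0034 to 0.21, unadjusted p = 0.0563, adjusted p = 0.34, limma). The difference was 0.072 to 0.076 under the 3 other scalings, and 0.13 without control dish 4, where the unadjusted p-value was under 0.05.

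The REV-ERB receptors bind heme and repress Arntl. Nr1d1 (chromosome 11, 98767932 to 98775333, minus strand) was at 5.66, 5.95, 6.59 and 5.93 TPM in control dishes and at 5.37, 6.62, 6.78 and 6.77 TPM in exposed dishes. Exposed dish 1 was the lowest of the 8, and the other exposed dishes were above all control dishes. The log2 difference was 0.067 (standard error 0.080, 95% interval -0.11 to 0.25, adjusted p = 0.742, limma), and 0.14 without exposed dish 1. Nr1d1 overlaps Thra, a thyroid hormone receptor gene on the other strand, over 1075 bases, and 6.5% of its runs of 75 bases also occur in Thra in the reverse direction. The kit marks strand, but the sources do not say whether the counting used it. Thra itself had 14.5 ± 0.807 TPM in control and 13.7 ± 0.671 TPM in exposed dishes (SD, n = 4 each, log2 difference -0.073, adjusted p = 0.552, limma).

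Nr1d2 (chromosome 14, 18204054 to 18239127, minus strand) was at 9.63, 11.0, 10.28 and 9.43 TPM in control dishes and at 10.77, 10.02, 10.71 and 10.64 TPM in exposed dishes. The exposed dishes all lay inside the control range. The log2 difference was 0.059 (standard error 0.057, 95% interval -0.068 to 0.19, adjusted p = 0.674, limma). In the transcript set, 2.3% of the runs of 75 bases of Nr1d2 also occur in a gene model named AC170187.1.

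Dbp, an activator of D-box genes and itself a strong target of CLOCK and ARNTL, was low. It was at 2.2, 2.41, 2.07 and 2.49 TPM in control dishes and at 2.79, 2.76, 2.32 and 2.84 TPM in exposed dishes (chromosome 7, 45705088 to 45710203, plus strand). Exposed dish 3 lay inside the control range and the other exposed dishes lay above it. The means were 2.29 ± 0.192 and 2.68 ± 0.241 (SD, n = 4 each). The log2 difference of 0.16 (standard error 0.084, 95% interval -0.028 to 0.35, unadjusted p = 0.0878, adjusted p = 0.4, limma) was the highest of the 10 and was above the 95th percentile of all tested genes, which was 0.15. Of its runs of 75 bases 15.3% also occur in the reverse direction in Sphk2, a sphingosine kinase gene on the other strand, chosen for mention after its values were seen. Sphk2 was at 17.5 ± 0.631 TPM in control and 17.5 ± 0.609 TPM in exposed dishes (SD, n = 4 each).

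**Figure D3:**
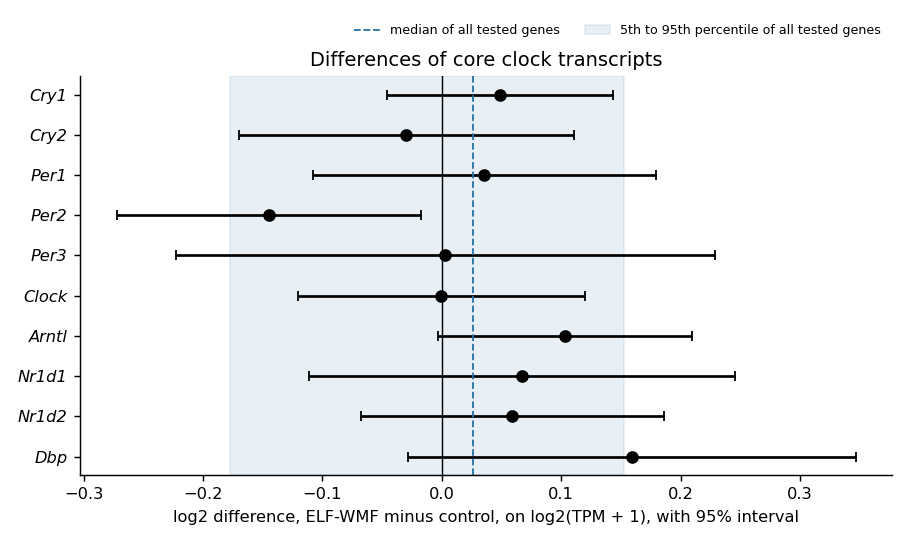
Log2 difference of each clock gene, ELF-WMF minus control, on the log2(TPM + 1) scale (horizontal axis), with the 95% interval from limma. The dashed line marks the median of all 12122 tested genes (0.026) and the shaded band their 5th to 95th percentile (-0.18 to 0.15); the interval of Per2 (-0.27 to -0.018) is the only one that leaves out 0.

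For the repressor Nr1d1 over its target Arntl, the ratio averaged -0.82 ± 0.12 in controls and -0.85 ± 0.13 after exposure (log2, SD, n = 4 each). These groups overlapped, with a difference of -0.036 (exact permutation p = 0.714, and 0.714 after adjustment). The ratio of Dbp to Arntl had means of -1.91 ± 0.056 and -1.86 ± 0.076 (log2, SD, n = 4 each), which overlapped too, with a difference of 0.056 (exact permutation p = 0.371, and 0.495 after adjustment). Between the activator Arntl and the repressor Per2 the groups did not overlap. The log2 ratio of Per2 to Arntl was -0.29, -0.13, -0.12 and -0.32 in control dishes and -0.54, -0.45, -0.43 and -0.43 in exposed dishes, a description only, since this ratio was chosen after the values were seen.

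The 10 transcripts spanned a wide range of levels, and their order was nearly the same in every dish. By mean TPM over the 8 dishes, which is a level per transcript length, Per1 (29.7 TPM) led Clock (23.4 TPM) and Cry1 (17.3 TPM), and the ranges of these 3 did not overlap. Arntl (11.9 TPM), Nr1d2 (10.3 TPM) and Per2 (9.19 TPM) followed. The ranges of Arntl and Nr1d2 overlapped over the dishes, although Arntl was higher in 8 of 8, and so did those of Nr1d2 and Per2, with Nr1d2 higher in 7 of 8. Cry2 (6.59 TPM) and Nr1d1 (6.21 TPM) were not separated, with Cry2 higher in 6 of 8 dishes. Dbp (2.49 TPM) and Per3 (1.22 TPM) were the lowest, each apart from its neighbours. As a percentile of level among tested genes, Per1 stood at 58.7, Cry1 at 43.2, Cry2 at 23 and Per3 at 2.85.

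The spread between dishes differed among the genes. Cry1 varied least, with a residual SD (log2) at percentile 18.8 of all tested genes, followed by Arntl at percentile 23.5. Nr1d1 varied most, at percentile 72. The median over the 10 genes was percentile 48.8. Exposed dish 1 was the lowest of all 8 dishes for Per1, Per2, Clock and Nr1d1. In that dish the deviation from the mean of its own group also fell with transcript length. The Spearman correlation across 12117 genes was -0.33, where the other dishes, each against its own group, had -0.13 to 0.15. The part of this length pattern in these clock values was not tested. Control dish 1 was below the mean of the 8 dishes for 10 of 10 genes.

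**Figure D4:**
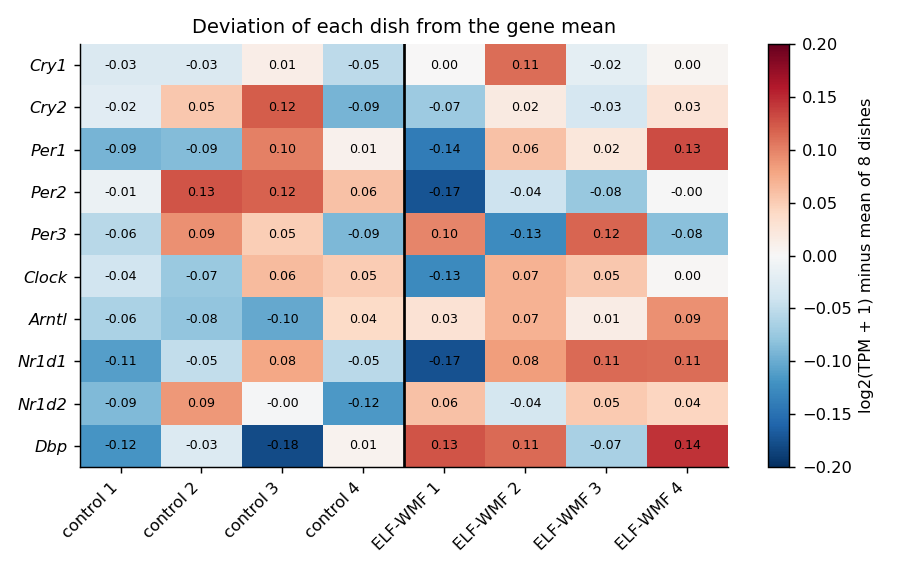
Deviation of each dish (columns) from the mean of the 8 dishes, on the log2(TPM + 1) scale, for the 10 clock genes (rows), with red above and blue below the mean and the value in each cell. Exposed dish 1 has the lowest values of Per1, Per2, Clock and Nr1d1, and Per2 is the one gene with every exposed dish at or below the mean of the 8.

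The enzymes and partners that tune the clock proteins were looked at as a list of 43 genes, of which 38 were tested. None had an adjusted p-value under 0.05 (limma), 8 had an unadjusted p-value under 0.05 and were higher, and 0 were lower, where 12% of all tested genes were higher at that threshold and 3.65% lower. Of the 38 fitted differences 32 were above 0, against 7720 of 12122 over all tested genes, with a median of 0.050 against 0.026. The exposed dishes were wholly higher for 4 genes, where 8.01% of all tested genes were. Under the 3 other scalings 2 to 4 genes were higher at an unadjusted p-value under 0.05, where 588 to 693 of all tested genes were. The list medians were then 0.017 to 0.021, against -0.0053 to -0.0013 over all tested genes, and 26 or 27 genes were above 0. Npas2 and Arntl2, paralogs of Clock and Arntl, were not tested for low levels, nor were Rorb, Hlf and Usp2.

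The 4 listed protein phosphatase genes were all above 0, with a median of 0.082, and 3 of them had an unadjusted p-value under 0.05, where 12% of all tested genes were higher at that threshold. After upper-quartile or median-of-ratios scaling Ppp5c alone of these 3 was still under 0.05. Ppp1ca, a catalytic subunit of PP1, which removes phosphates from PER proteins, was at 840 ± 9.27 TPM in control dishes and 886 ± 19.8 TPM in exposed dishes (SD, n = 4 each). Its log2 difference was 0.076 (standard error 0.023, unadjusted p = 0.00772, adjusted p = 0.168, limma), and its groups did not overlap. Under the 3 other scalings the difference was 0.042 to 0.047, and the groups overlapped after upper-quartile and median-of-ratios scaling. Ppp5c, a phosphatase that acts on casein kinase 1 epsilon, was at 141 ± 3.19 TPM and 151 ± 5.04 TPM, with a log2 difference of 0.10 (adjusted p = 0.166, limma). Several further genes are named here for their role, after their values were seen. The 6 kinase genes, which include Csnk1d and Csnk1e, the casein kinases that mark PER proteins for decay, had differences above 0 as well, with none at an unadjusted p-value under 0.05 and a median of 0.052. Csnk1d was below 0 under the 3 other scalings (-0.0096 to -0.0053), and the other kinases were at 0.0064 to 0.052.

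Rack1, a scaffold found in the PER complex and on ribosomes, was at 1292 ± 15.4 TPM in control and 1379 ± 40.0 TPM in exposed dishes (SD, n = 4 each), with a log2 difference of 0.094 (unadjusted p = 0.0043, adjusted p = 0.142, limma), the smallest p-value of this list. Its difference under the 3 other scalings was 0.060 to 0.064, and its groups overlapped after upper-quartile scaling. Hdac3, the deacetylase that REV-ERB alpha recruits, had a difference of 0.084 (adjusted p = 0.189, limma), which was 0.051 to 0.055 under the 3 other scalings, and the acetyltransferase gene Ep300 had 0.15 (adjusted p = 0.226, limma). The repressors of E-box transcription were mixed, with Bhlhe40 at 0.033, Bhlhe41 at -0.13, Ciart at 0.19 and Cipc at -0.085 (adjusted p = 0.732, 0.43, 0.507 and 0.669, limma). Ciart was low, at 1.44 to 2.15 TPM in control dishes and 1.8 to 2.73 TPM in exposed dishes. Under the 3 other scalings Bhlhe40 was at -0.0005 to 0.0038 and Bhlhe41 at -0.163 to -0.159.

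**Figure D5:**
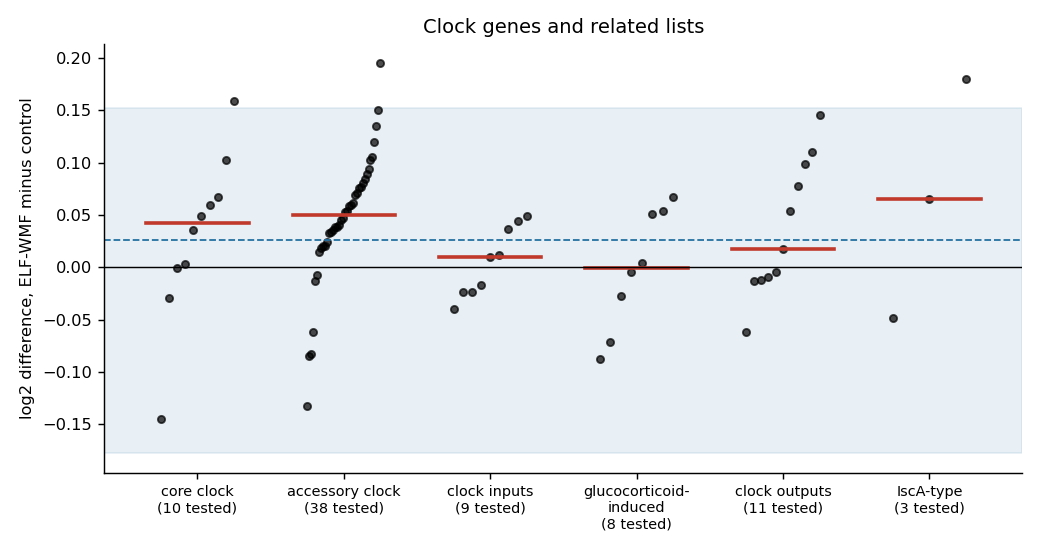
Log2 difference, ELF-WMF minus control, on the log2(TPM + 1) scale (vertical axis) of every tested gene (points) in 6 lists, with the list median as a red bar, the median of all tested genes as a dashed line (0.026) and their 5th to 95th percentile as a shaded band. The median of the accessory list (0.050) lies above that of all genes, and the points of every list lie mostly inside the band.

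The signal inputs that reset the clock were looked at next, since Per1 and Per2 respond to them. Of 9 tested genes for CREB, its coactivators, SRF, its cofactors and the glucocorticoid receptor, 5 were above 0 and 4 below, with a median of 0.010, and none had an unadjusted p-value under 0.05 (limma). With the 3 other scalings 3 were above 0 and 6 below, with medians of -0.023 to -0.019. Nr3c1, the glucocorticoid receptor gene and also named for its role, had a log2 difference of -0.024 (adjusted p = 0.854, limma). Of 9 genes that glucocorticoids induce 8 were tested, all but Tat, and their median was -0.0004, with 4 above 0 and 4 below. The 3 other scalings gave 3 above 0 and 5 below, with medians of -0.029 to -0.025. As deposited 1 gene was wholly lower, where 1.86% of all tested genes were, and 1 was wholly higher, where 8.01% were. Under the 3 other scalings 2 were wholly lower, where 393 to 489 of all tested genes were. Under them 0 or 1 were wholly higher, where 408 to 464 of all tested genes were. Tsc22d3, which encodes the glucocorticoid-induced leucine zipper GILZ, was at 149, 145, 143 and 145 TPM in control dishes and at 137, 137, 139 and 141 TPM in exposed dishes. All exposed dishes were lower than all control dishes, with a log2 difference of -0.071 (standard error 0.024, unadjusted p = 0.0137, adjusted p = 0.194, limma), or -0.105 to -0.100 under the 3 other scalings. Errfi1, an inhibitor of EGF receptor signalling, had a difference of 0.067 and no overlap (adjusted p = 0.226, limma). It was 0.034 to 0.039 under the 3 other scalings, with unadjusted p-values of 0.129 to 0.174 (limma), and the groups overlapped after rescaling without mitochondrial genes.

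Genes that the clock drives in liver and other tissues were listed as outputs, of which 11 of 13 were tested and Cyp7a1 and Gys2 were too low. Of the 11 fitted differences 6 were above 0 and 5 below, with a median of 0.017, and 4 genes were wholly higher, where 8.01% of all tested genes were. With the 3 other scalings 5 were above 0 and 6 below, with medians of -0.015 to -0.011. Under these scalings 2 genes were wholly higher, where 408 to 464 of all tested genes were. Pnpla2, the adipose triglyceride lipase gene, was at 71.8 ± 0.808 TPM in control and 76.9 ± 0.440 TPM in exposed dishes (SD, n = 4 each). Its groups did not overlap, with a log2 difference of 0.098 (standard error 0.024, unadjusted p = 0.00201, adjusted p = 0.126, limma). Under the 3 other scalings the difference was 0.065 to 0.069 (unadjusted p = 0.0133 to 0.0184, limma), still with no overlap. Tspan4, a tetraspanin gene, was at 189 ± 4.19 TPM and 204 ± 3.62 TPM, again with no overlap, a log2 difference of 0.11 and the smallest p-value of the list (unadjusted p = 0.00152, adjusted p = 0.122, limma). The Tspan4 difference was 0.076 to 0.080 under the 3 other scalings (unadjusted p = 0.00894 to 0.0146, limma), with no overlap. Leo1, a part of the PAF1 complex, had a difference of 0.077 (adjusted p = 0.311, limma), which was 0.044 to 0.049 under the 3 other scalings.

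ISCA1, an iron-sulfur cluster assembly protein also called MagR, has been proposed to form a magnetic sensor with cryptochrome. Isca1 was at 56.21, 58.37, 57.59 and 59.58 TPM in control dishes and at 61.81, 60.17, 59.77 and 60.86 TPM in exposed dishes. The groups did not overlap, although control dish 4 and exposed dish 3 were close, and the log2 difference was 0.065 (standard error 0.028, unadjusted p = 0.0456, adjusted p = 0.309, limma). Under the 3 other scalings it was 0.032 to 0.036 and the groups overlapped. Its relatives in the same pathway, Isca2 and Iba57, had differences of -0.049 and 0.18 (adjusted p = 0.622 and 0.286, limma).

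The genes whose pattern over the 8 dishes was most like that of Cry1 were Spata5, Nmt1 and Vat1, with Pearson's r of 0.97, 0.96 and 0.95. For Cry2 they were Troap, Zc3h11a and Top3a, with r of 0.94, 0.92 and 0.92. These are the 3 highest of 9787 genes with a mean of at least 5 TPM, over 8 dishes that share their scaling, and they are given as a description.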

How the data were processed

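RNA was extracted from 4 control dishes and 4 dishes exposed for 1 h, and stranded poly(A) libraries were read as 150 bp pairs. Per the submitters' processing notes, Trimmomatic 0.39, STAR 2.7.4a, RSEM 1.3.3 and the mm10 build were used. The annotation, the parameters and the strand setting are not given in the sources used here. The authors deposited TPM, 1 value per gene and dish.

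Genes that reached 1 TPM in 4 or more dishes were compared on log2(TPM + 1), with a pseudocount of 1, by limma 3.58.1 (lmFit, eBayes with a trend, two-sided) in R 4.3.3, with Benjamini-Hochberg adjustment over all tested genes and a threshold of 0.05. The scale understates changes of low genes. Ratios were compared by exact permutation with scipy 1.17.1. The fit was tested on simulated data. Positions are those of GENCODE M21, which held 55141 of the gene identifiers. Promoter windows came from RefSeq.

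Each group holds separate dishes of 1 line, so p-values measure the spread between dishes. The text names the 10 clock genes, the list genes with an unadjusted p-value under 0.05 (up to 5 in each direction), the untested list genes, the Isca1 group, cell type markers, Thra, and the 3 genes most like Cry1 and Cry2. The genes and lists were chosen with earlier results of these data known. Alternatives covered the pseudocount, the filter, the variance trend, 3 scalings (upper-quartile, median-of-ratios, and without mitochondrial genes), a replicate block and the omission of single dishes. No count model was fitted to the TPM values. Some genes of the lists are counted but not reported here by name.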

Additional observations from a re-analysis of the deposited data

Results flagged for a closer look

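In 3 groups of 4 dishes a clock gene had a dish far from the other 3, by Dixon's criterion at 95%. Chance flags about 1 group in 20, and 56 groups were looked at over the named genes and ratios, so that 2.8 would be flagged by chance. All 3 lay among the exposed dishes, each in a different dish. Cry1 was at 18.73 TPM in exposed dish 2, where the other exposed dishes had 17.02 to 17.31 TPM, and its log2 difference was 0.020 without that dish and 0.049 with it. Nr1d1 was at 5.37 TPM in exposed dish 1, where the others had 6.62 to 6.78 TPM, and its log2 difference was 0.14 without that dish and 0.067 with it. Dbp was at 2.32 TPM in exposed dish 3, where the others had 2.76 to 2.84 TPM, and its log2 difference was 0.21 without that dish and 0.16 with it. The cause was not tested.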

How the results depend on the processing

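TPM keeps no depth, so the counting error of low genes such as Per3 and Dbp is unknown, and 4 dishes a group limit the exact tests to p-values of 0.0286 or more. No clock gene had an adjusted p-value under 0.05 under any of 16 alternatives (limma). The count of clock genes with an unadjusted p-value under 0.05 was 1 as reported, 2 with every gene above 0 in any dish kept, 3 without the variance trend, and 0 to 2 with each dish left out. All genes counted 1733 higher and 832 lower of 25413 with that filter, and 1224 higher and 499 lower of 12122 without the trend. With each dish left out 1066 to 1625 of all tested genes were higher and 330 to 513 lower. The count with no overlap between groups was 0 as reported, 1 (Per2) under upper-quartile and median-of-ratios scaling and after rescaling without mitochondrial genes, and 0 to 1 with each dish left out. Under these scalings 408 to 464 of all tested genes were wholly higher and 393 to 489 wholly lower. With each dish left out 1098 to 1622 were wholly higher and 301 to 488 wholly lower. The clock gene with no overlap was then not always Per2. It was Cry1 without control dish 3, Arntl without control dish 4, Nr1d1 without exposed dish 1 and Dbp without exposed dish 3. Without control dish 1 or exposed dish 4 it was Per2. Over all tested genes the unadjusted calls were 1451 higher and 443 lower as deposited, but 588 higher and 801 lower after upper-quartile scaling.

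Of 160 refitted differences of single clock genes 148 kept their sign and 12 did not, all of them near 0. Leaving out each dish gave -0.0655 to 0.0060 for Cry2, -0.0017 to 0.0881 for Per1, -0.0354 to 0.0451 for Per3, -0.0254 to 0.0418 for Clock, and -0.0744 to 0.0265 for the Nr1d1 to Arntl ratio. Per3 was -0.0152 with upper-quartile scaling, -0.0127 with median-of-ratios scaling and -0.0139 without mitochondrial genes. Per2 stayed between -0.1754 and -0.1115, Arntl between 0.0718 and 0.1328 and Dbp between 0.1259 and 0.2145. The cause was not tested.

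Same-numbered dishes did not deviate together (correlations of their deviations -0.0419 to 0.0258), and the numbers were used as labels only. These correlations cannot show how the dishes were set up, and the labels do not say whether equal numbers were paired. Under the replicate block the counts were 0 and 1, as without it, and the Per1 to Per2 difference had an exact sign-flip p of 0.125, the smallest 4 pairs allow, and 0.5 after adjustment.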
